A study of Gallus gallus with 4 samples.

Results

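The kinesin motor genes are described here by every probe set whose gene symbol in the array's platform annotation begins with KIF and a digit or C, begins with KLC and a digit, or is KIFAP3. These symbols named 38 genes read by 100 probe sets, of 13008 genes with a symbol and 38382 probe sets tested. Of the 38 genes, KLC1, KLC2 and KIFAP3 encode accessory subunits and KIF1BP a protein that binds kinesin motors, so that the label of motor genes does not cover every member. The ovary group was 2 pools of whole ovaries and the testis group 2 pools of whole testes, each pool with equal amounts of RNA from 4 chickens aged 17 weeks. All birds came from inbred CB congenic lines of White Leghorn descent, no bird was treated, and 8 females and 8 males were used in all. The array was the Affymetrix Chicken Genome Array, with 1 array for each pool. A pool averages the animals in it, so the spread between pools is not that between single birds.

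Kinesins are motor proteins that use ATP to move along microtubules or to take their ends apart. Mitotic members build the spindle, move chromosomes and help the daughter cells to separate. Transport members carry vesicles, organelles and protein complexes, and kinesin-2 carries the trains that assemble cilia and sperm tails. In the testis, germ cells go through mitosis, meiosis and the shaping of the sperm head and tail, all of which depend on microtubules. In the ovary, granulosa cells divide while oocytes wait in meiotic prophase. The roles given below for single genes are known from mammals unless another animal is named.

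The values were the authors' deposited log2 expression values per probe set, and a gene was represented by its brightest probe set over all 4 arrays. Differences are log2 ovary minus testis, from limma, and a gene was called where its p, after Benjamini-Hochberg adjustment across the 38382 probe sets, was under 0.05. The background level was set at log2 3.32, below which 99% of the values of 689 probe sets for other sequences lie, and 55.1% to 55.7% of an array's probe sets exceeded it. Pools of ovary correlated at r = 0.991 across probe sets and pools of testis at 0.995, against 0.825 to 0.834 between the organs. Of the oocyte markers 5 of 5 measured genes and of the granulosa cell markers 3 of 3 were higher in ovary. Of the Sertoli cell markers 3 of 3 and of the meiotic germ cell markers 6 of 6 were higher in testis, as the organ labels say. Of all genes, 28.7% were called toward ovary and 24.3% toward testis. The lists were chosen with earlier results of these data known and are no independent check of the labels.

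Kinesin genes were called more often toward testis than toward ovary. Of the 38 genes, 8 were called toward ovary and 18 toward testis, and 12 did not pass. That is 21.1% and 47.4% of the members, where 28.7% of all genes with a symbol were called higher in ovary and 24.3% higher in testis. With a difference of at least 1 on the log2 scale, 6 were higher in ovary, against 22.0% of all genes, and 15 in testis, against 18.4%. The median difference of the kinesin genes was -0.53 and that of all genes was 0.015. The brightest probe set lay above background in some pool for 35 of the 38 kinesin genes and for 10716 of all 13008 genes. The pools of the organs did not overlap for 35 kinesin genes, which is a common state here, since it held for 81.2% of all genes. In whole organs, fewer cells of a type and less RNA per cell cannot be told apart. The plot of values by pool shows the levels behind these counts.

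**Figure D1:**
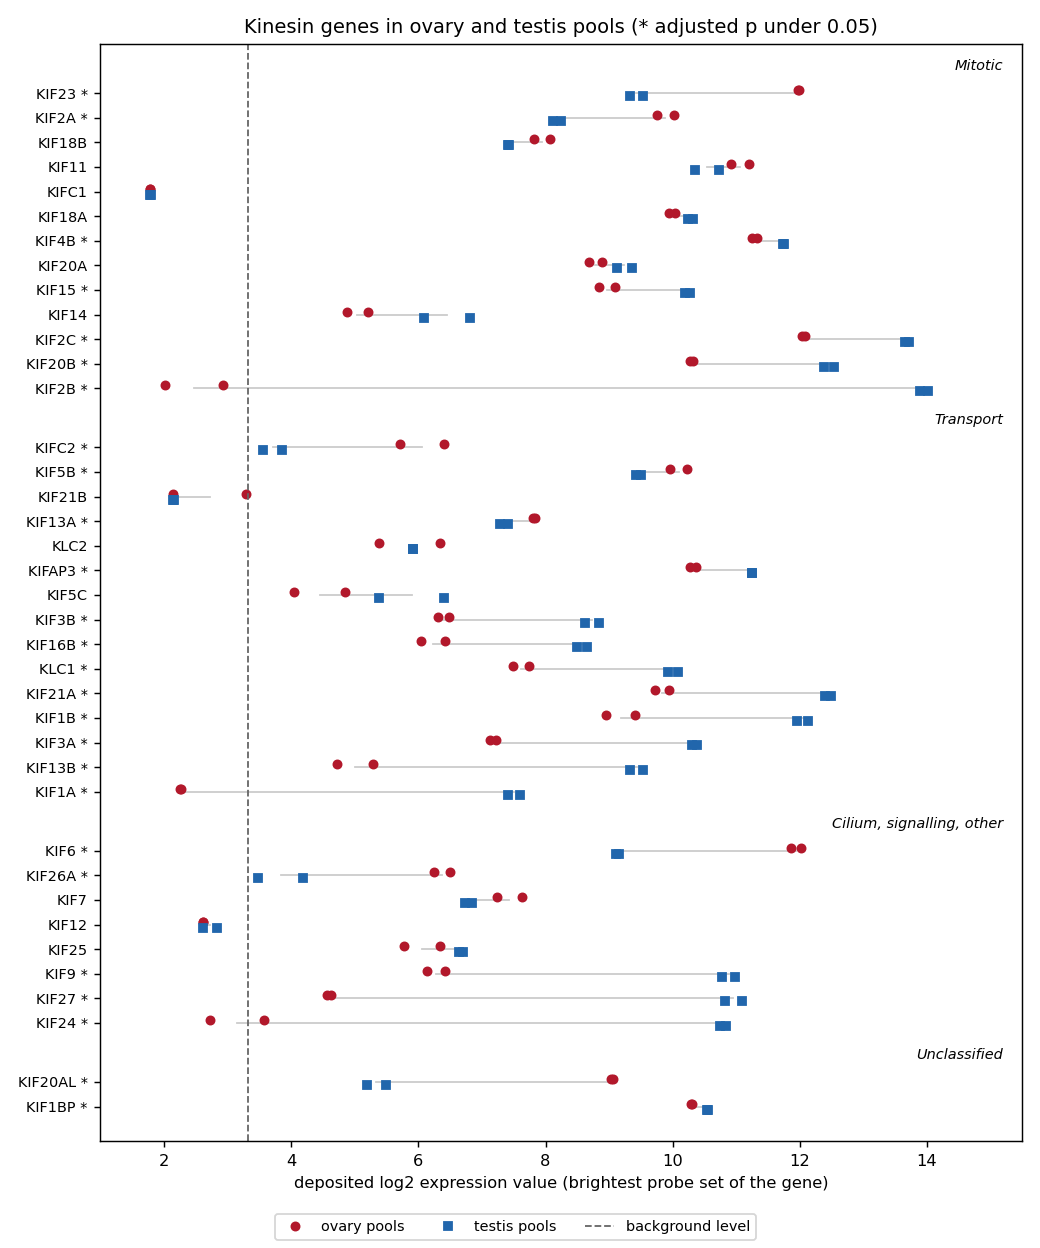
Deposited log2 expression value (horizontal axis) of the brightest probe set of each of the 38 kinesin genes (rows, by class and then by difference), with red circles for the 2 ovary pools, blue squares for the 2 testis pools, a grey line joining the organ means and a dashed line at the background level of 3.32. Asterisks mark the 26 genes with an adjusted p under 0.05, and 3 genes, KIFC1, KIF21B and KIF12, lie at or below background in every pool.

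The division by role gave 13 mitotic and 15 transport genes, 8 genes of cilia, signalling and other roles, and 2 that were left unclassified. Of the mitotic genes, 2 (15.4%) were called toward ovary and 5 (38.5%) toward testis, with a median difference of -0.45. Of the transport genes, 3 (20.0%) were called toward ovary and 9 (60.0%) toward testis, with a median of -2.34. All genes with a symbol stood at 28.7% toward ovary and 24.3% toward testis, with a median of 0.015. Whether the classes differ from each other was not tested. The larger share of transport than of mitotic genes toward testis was not kept with either testis pool left out. Genes of both classes went both ways, as the plot of shares shows. If classes follow the family number alone, the mitotic class has 17 genes, of which 2 (11.8%) were higher in ovary and 8 (47.1%) in testis. The transport class then has 13 genes, of which 2 (15.4%) were higher in ovary and 8 (61.5%) in testis. KIF24, KIF27, KIF21A, KIF7, KIF12 and KIF21B then join the mitotic class, and KIF14 and KIFC1 leave it.

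**Figure D2:**
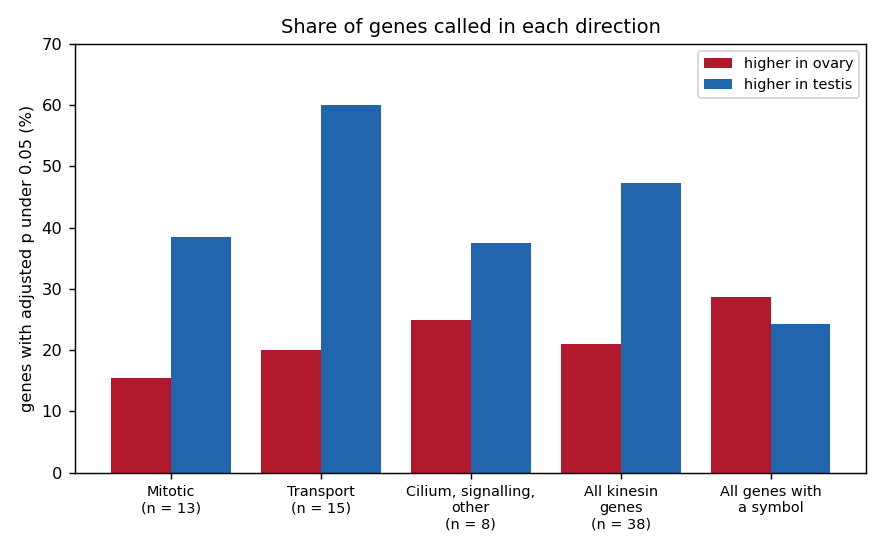
Share of genes (percent, vertical axis from 0) with an adjusted p under 0.05, higher in ovary (red) or higher in testis (blue), for the 3 kinesin classes, all 38 kinesin genes and all genes with a symbol. Transport kinesin genes were called at 20.0% toward ovary and 60.0% toward testis, where all genes stood at 28.7% and 24.3%.

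The kinesin-13 family takes microtubule ends apart instead of walking along them, and its 4 genes split between the organs. KIF2B, which helps to correct faulty chromosome attachments, read log2 2.01 and 2.93 in the ovary pools, below background, and 14.02 and 13.89 in the testis pools. Its testis mean stood at least 1587-fold above the background level, which bounds the value in ovary (adjusted p = 0.00226). KIF2C, the depolymerase of centromeres, read 12.04 and 12.08 in ovary and 13.65 and 13.72 in testis. It was bright in both organs and 3.08-fold higher in testis (difference -1.63, SE 0.0399, adjusted p = 0.00144), and all 4 of its probe sets were called that way, 2 of them with each pool left out. KIF2A, which acts at spindle poles and in growing neurons, went the other way, with 10.02 and 9.75 in ovary and 8.12 and 8.25 in testis. Its difference of 1.70 passed (SE 0.127, adjusted p = 0.00762), but its dimmer probe set showed 0.08 (adjusted p = 0.757). KIF24, which acts at centrioles and holds back the growth of cilia, read 2.72 and 3.58 in ovary, around background, and 10.85 and 10.75 in testis (adjusted p = 0.00367). Its difference was -7.65 as deposited and -7.35 with values under the background level raised to it. The second probe set of KIF24 lay at background in both ovary pools and in testis was higher by at least 44.6-fold (adjusted p = 0.000502). The second probe set of KIF2B was at background in all pools. With testis pool 1 left out the adjusted p was 0.0910 for KIF2A and 0.0646 for KIF24, and with testis pool 2 left out it was 0.0849 for KIF2A and 0.0648 for KIF24.

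**Figure D3:**
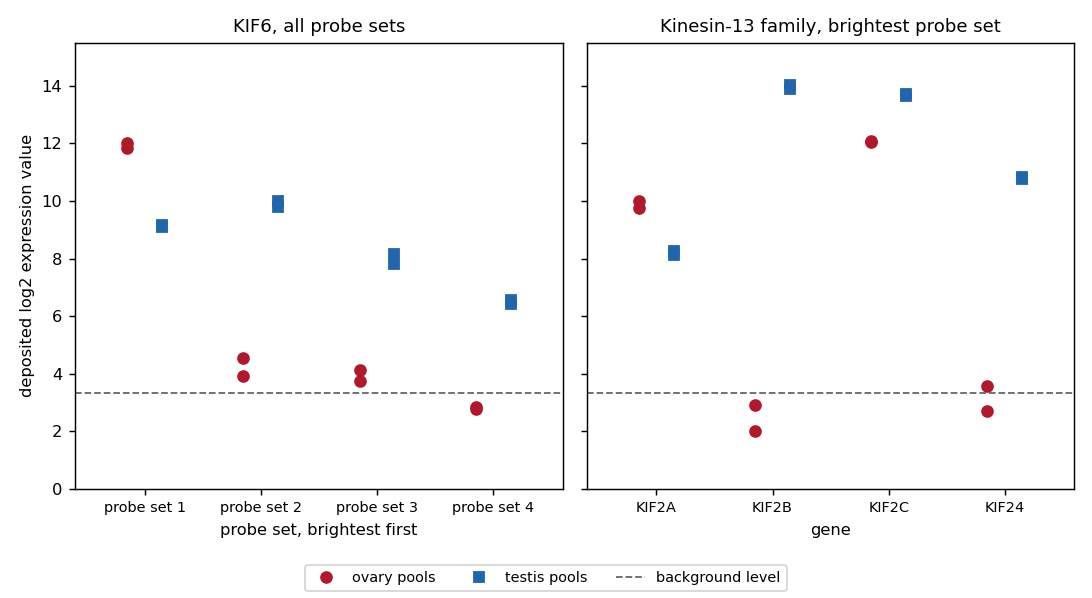
Deposited log2 expression values (vertical axis) of the 4 probe sets of KIF6 (left) and of the brightest probe set of each kinesin-13 gene (right), with red circles for ovary pools, blue squares for testis pools and a dashed line at background. The brightest KIF6 probe set is higher in ovary and the other 3 in testis, and of the kinesin-13 genes KIF2A alone is higher in ovary. Heights of different probe sets are not comparable with each other.

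The kinesin-6 family works at the central spindle, where the dividing cell is pinched apart, and its genes also went in opposite directions. KIF23, the motor subunit of the centralspindlin complex, read log2 11.97 and 11.99 in ovary and 9.54 and 9.33 in testis. Both of its probe sets were higher in ovary, the brighter by 2.55 (SE 0.0917, adjusted p = 0.00236) and the other by 1.22 (adjusted p = 0.00888). KIF20B, which takes part in cytokinesis, read 10.27 and 10.33 in ovary and 12.38 and 12.54 in testis. All 5 of its probe sets were higher in testis, by differences of -2.84 to -2.16, and 3 of the 5 calls held with each pool left out. KIF20A, which brings the chromosomal passenger complex to the central spindle, did not pass by its brighter probe set (-0.46, adjusted p = 0.120). Its dimmer probe set read 6.12 and 6.66 in ovary and 4.36 and 4.38 in testis and was higher in ovary (2.02, adjusted p = 0.0171), a call lost with either testis pool left out (adjusted p = 0.152 for pool 1, 0.145 for pool 2). The gene listed as KIF20AL, to which no role is given here and which was left unclassified, was higher in ovary as well, with 9.03 and 9.06 in ovary and 5.49 and 5.19 in testis (3.71, SE 0.129, adjusted p = 0.00228). Whether probe sets of KIF20A and KIF20AL read each other's transcripts was not tested.

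Among the other mitotic motors, 2 were called and both toward testis. KIF15, which helps to hold spindle poles apart, read log2 8.85 and 9.09 in ovary and 10.27 and 10.19 in testis (-1.26, SE 0.109, adjusted p = 0.00976). A further 2 of its probe sets were called that way, at -2.21 and -2.48, the call at -2.48 being lost with either testis pool left out (0.104 for pool 1, 0.123 for pool 2), and the remaining 2 lay at background. KIF4B, a chromokinesin that also carries the older symbols KIF4 and KIF4A, differed by -0.45 (adjusted p = 0.00806). KIF11, the motor that pushes spindle poles apart, was bright in every pool, with 10.92 and 11.20 in ovary and 10.36 and 10.73 in testis, and its difference of 0.51 did not pass (adjusted p = 0.199). KIF18A, which steadies chromosomes at the spindle's centre, came close to the threshold at -0.29 (adjusted p = 0.0512), and KIF18B, which shortens astral microtubules, at 0.53 (adjusted p = 0.0563). KIF18B passed with either ovary pool left out (adjusted p = 0.0405 for pool 1, 0.0225 for pool 2). KIF14, a cytokinesis motor, had a difference of -1.41 by its brightest probe set (adjusted p = 0.0801). A dimmer one with ovary at background was higher in testis by at least 3.82-fold (adjusted p = 0.00781). The remaining KIF14 probe set, also at background in ovary, read 4.55 and 6.25 in testis and did not pass (adjusted p = 0.0995). KIFC1, the motor that gathers microtubule minus ends at spindle poles, read 1.79 in all 4 pools, so that its single probe set carried no signal. KIF15 lost its call with either testis pool left out (adjusted p = 0.109 for pool 1, 0.102 for pool 2), as did KIF4B (0.0879 for pool 1, 0.0871 for pool 2).

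The partners of the mitotic motors at the spindle were called in both directions. Of 18 measured members of a list of 20 spindle partners, 7 (38.9%) were called toward ovary and 6 (33.3%) toward testis, where all genes stood at 28.7% and 24.3%, and the median difference was -0.12. HMMR, a spindle pole protein gene, was higher in ovary by 2.47 (adjusted p = 0.00194), and so were 2 genes of the passenger complex, AURKB by 1.82 (adjusted p = 0.00329) and INCENP by 1.41 (adjusted p = 0.00236). PRC1, which bundles microtubules of the central spindle and works with KIF4 and KIF14, was higher in testis (-3.27, adjusted p = 0.00271). BIRC5, a further gene of the passenger complex, was higher in testis (-1.80, adjusted p = 0.0053), as was the spindle assembly gene DLGAP5 (-1.19, adjusted p = 0.000965). RACGAP1, which encodes the partner of KIF23 in centralspindlin and was picked out after its values were seen, was slightly higher in testis, at 12.59 and 12.65 in ovary and 13.04 and 12.92 in testis (-0.36, adjusted p = 0.0352). The call of RACGAP1 ended with any pool left out (adjusted p = 0.0882 to 0.132), and those of AURKB (0.0502) and BIRC5 (0.0514) with testis pool 1 left out. Of 6 general genes of dividing cells, 33.3% were called toward ovary and 16.7% toward testis, where all genes stood at 28.7% and 24.3%. The 2 called toward ovary were CDK1 at 0.99 (adjusted p = 0.00736) and BUB1 at 0.70 (adjusted p = 0.0328). TOP2A, the topoisomerase that untangles chromosomes, was the only one called toward testis, with 8.12 and 8.04 in ovary and 12.21 and 11.88 in testis (-3.96, adjusted p = 0.00249). TOP2A stayed called with each pool left out, while CDK1 lost its call with either testis pool left out (0.0894 for pool 1, 0.0923 for pool 2) and BUB1 with any pool (0.0839 to 0.122). The summed linear values of the 6 genes were 19242 to 20370 in the ovary pools and 18066 to 19798 in the testis pools. These ranges overlapped, while single genes did not share a direction. Bright probe sets weigh most in such a sum, and the share of dividing cells was not tested.

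Kinesin-2, the motor of intraflagellar transport, had every measured subunit higher in testis. KIF3A, a motor subunit, read log2 7.12 and 7.23 in ovary and 10.39 and 10.30 in testis, and was 8.99-fold higher in testis (-3.17, SE 0.0624, adjusted p = 0.0011). All 3 of its probe sets were called that way, at -3.17 to -2.70, and 2 of the 3 calls held with each pool left out. KIF3B, its partner subunit, read 6.48 and 6.31 in ovary and 8.62 and 8.84 in testis (-2.34, adjusted p = 0.00386). A second probe set of KIF3B differed by -4.20 (adjusted p = 0.00575), a call lost with either testis pool left out (0.0755 for pool 1, 0.0803 for pool 2), and another, with ovary values of 2.93 and 4.90, did not pass (-1.93, adjusted p = 0.238). KIFAP3, the accessory subunit that links the motor pair to cargo, was high in both organs, with 10.36 and 10.27 in ovary and 11.25 in each testis pool. Its difference of -0.94 passed (adjusted p = 0.0032), and thus the 3 subunits shared a direction at unequal sizes. KIFAP3 lost its call with either testis pool left out (adjusted p = 0.0546 for pool 1, 0.0559 for pool 2).

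Kinesin-1, the general cargo motor of heavy and light chains, did not move as a unit. KIF5B, the heavy chain found in most tissues, was higher in ovary by 0.64 (adjusted p = 0.046), and 2 of its 3 probe sets were called that way, neither of them with a testis pool left out. KLC1, a light chain that binds cargo adaptors, went the other way, with log2 7.74 and 7.50 in ovary and 9.93 and 10.08 in testis (-2.39, SE 0.126, adjusted p = 0.00418). A second KLC1 probe set was called toward testis at -1.57 (adjusted p = 0.0258), and not with either testis pool left out (0.167 for pool 1, 0.174 for pool 2). KLC2, a further light chain, read 6.34 and 5.39 in ovary and 5.92 in each testis pool, so that the ovary pools lay on either side of testis (-0.05, adjusted p = 0.957). Its sign followed the ovary pool that was kept, with a difference of -0.53 when ovary pool 1 was left out (adjusted p = 0.0265) and of 0.42 when ovary pool 2 was (adjusted p = 0.0358). KIF5C, the heavy chain enriched in neurons, did not pass by its brightest probe set, with 4.04 and 4.85 in ovary and 5.38 and 6.41 in testis (-1.45, adjusted p = 0.194). Another probe set of KIF5C was called toward ovary (1.12, adjusted p = 0.036), a call lost with ovary pool 2 (adjusted p = 0.0511), testis pool 1 (0.222) or testis pool 2 (0.172) left out. KIF5B lost its call with either testis pool left out (adjusted p = 0.259 for pool 1, 0.200 for pool 2), as did KLC1 (0.0579 for pool 1, 0.0624 for pool 2).

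The vesicle motors of the kinesin-3 family were mostly higher in testis, among them the motor best known from axons. KIF1A, which carries the precursors of synaptic vesicles, read log2 2.26 and 2.27 in ovary, at background, and 7.60 and 7.40 in testis. In testis it was higher by at least 18.1-fold (adjusted p = 0.000869), and a second probe set by at least 6.28-fold (adjusted p = 0.0221), a call lost with any pool left out (0.0573 to 0.0842), while the other 4 of its 6 probe sets lay at background in every pool. All 7 markers of neurons and adrenal medulla, on a list chosen with earlier results of these data known, had the opposite direction. Their summed linear values were 19422 to 23146 in the ovary pools and 515 to 553 in the testis pools. SNAP25, SYT1 and TH were at background in both testis pools. Of other genes tied here to neurons, KIF2A, KIFC2, KIF26A and MADD were higher in ovary and KIF1B in testis. These were gathered from the roles given in the text and not from a list set beforehand. The dimmer KIF2A probe set differed by only 0.08 (adjusted p = 0.757), and testis values of KIFC2 and KIF26A lay near background. All genes stood at 28.7% toward ovary and 24.3% toward testis. By their brightest probe sets KIF5C and KIF21B did not pass. The part of nerve or adrenal tissue in any of these differences was not tested. KIF1B, a carrier of mitochondria and synaptic vesicle precursors, read 9.41 and 8.95 in ovary and 12.13 and 11.95 in testis (-2.86, adjusted p = 0.00752). Another KIF1B probe set read 10.21 and 9.08 in ovary and 10.55 and 10.94 in testis and did not pass (-1.11, adjusted p = 0.264). A dimmer probe set of KIF1B was called toward testis at -3.37 (adjusted p = 0.0476), a call lost with either testis pool left out. The rest of its 5 probe sets lay at background in every pool. KIF13B, which carries membrane-bound polarity proteins, read 4.72 and 5.28 in ovary and 9.33 and 9.54 in testis, a difference of -4.43 (SE 0.257, adjusted p = 0.00491). Its second probe set, at background in both ovary pools, was higher in testis by at least 21.5-fold. KIF16B, a motor of early endosomes, read 6.05 and 6.41 in ovary and 8.66 and 8.49 in testis, and 3 of its 4 probe sets were called toward testis, 1 of them with each pool left out. KIF13A, a motor of recycling endosomes, was the member higher in ovary, by 0.48 (adjusted p = 0.0199), and its other probe set, near background, did not pass (-0.60, adjusted p = 0.568). KIF14 belongs to this family by sequence and is described above with the mitotic genes. KIF13A lost its call with ovary pool 1 (adjusted p = 0.0790), ovary pool 2 (0.0901) or testis pool 2 (0.0580) left out. With testis pool 1 left out the adjusted p was 0.0699 for KIF13B, 0.0894 for KIF16B and 0.0932 for KIF1B, and with testis pool 2 left out it was 0.0739 for KIF13B, 0.0839 for KIF16B and 0.0878 for KIF1B.

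The remaining transport members came from the kinesin-4 and kinesin-14 families. KIF21A, which restrains microtubule growth at the cell cortex, read log2 9.95 and 9.72 in ovary and 12.39 and 12.49 in testis. Both of its probe sets were higher in testis, at -2.60 (adjusted p = 0.00281) and -3.43 (adjusted p = 0.00125). KIF21B, its neuronal relative, was at or below background in every pool by both of its probe sets, although its difference passed with ovary pool 1 left out (adjusted p = 0.0124). KIFC2, a minus-end motor known from mouse neurons, read 5.72 and 6.40 in ovary and 3.56 and 3.85 in testis and was higher in ovary by 2.35 (adjusted p = 0.0236). Its testis values lay just above the background level and below the brightest probe set for other sequences on the same arrays (3.82 and 3.88). The other KIFC2 probe set lay at background in every pool. With testis pool 1 left out the adjusted p was 0.0501 for KIF21A and 0.177 for KIFC2, and with testis pool 2 left out it was 0.0526 for KIF21A and 0.148 for KIFC2. Of 15 measured members of a list of 20 cargo adaptors and regulators, 6 (40.0%) were called toward ovary and 2 (13.3%) toward testis, where all genes stood at 28.7% and 24.3%. Their median difference was 0.73, and whether they differ as a group from the transport motors was not tested. PLEKHM2, which couples lysosomes to kinesin-1, was higher in ovary by 2.23 (adjusted p = 0.000775). MADD, an adaptor of kinesin-3 for synaptic vesicle precursors, was higher in ovary by 2.02 (adjusted p = 0.000529), and CLSTN1, a kinesin-1 cargo receptor, by 1.38 (adjusted p = 0.00878). The members higher in testis were the mitochondrial adaptor TRAK2 (-1.58, adjusted p = 0.0101) and KIF1BP, at -0.26 (adjusted p = 0.00888), which the rule for kinesin genes also takes in. CLSTN1 lost its call with either testis pool left out (adjusted p = 0.0600 for pool 1, 0.0697 for pool 2), as did TRAK2 (0.0673 for pool 1, 0.0785 for pool 2). KIF1BP lost its call with either ovary pool left out (adjusted p = 0.0781 for pool 1, 0.0748 for pool 2) and under 5 of the alternatives that kept all pools.

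Among the kinesins of cilia and signalling, KIF9 and KIF27 had large differences toward testis. KIF9, a kinesin-9 of the motile axoneme that mouse sperm need to swim, read log2 6.13 and 6.42 in ovary and 10.98 and 10.78 in testis. Its difference was -4.60 (SE 0.152, adjusted p = 0.00213), and all 4 of its probe sets were called toward testis. They differed by -5.33 to -4.56, apart from one at background in both ovary pools that was higher in testis by at least 6.15-fold, and 3 of the 4 stayed called with each pool left out. KIF27, a kinesin-4 known from motile cilia of the mouse, read 4.62 and 4.56 in ovary and 10.82 and 11.08 in testis and was 82.2-fold higher in testis (adjusted p = 0.00103). KIF7, its relative in Hedgehog signalling, did not pass (0.64, adjusted p = 0.102), and passed without ovary pool 1 (adjusted p = 0.0319). All 6 markers of the motile cilium were higher in testis too, with summed linear values of 517 to 553 in the ovary pools and 32973 to 37174 in the testis pools, and CCDC39 was at background in both ovary pools. Of 6 spermatid markers 5 were higher in testis, with sums of 952 to 963 in ovary and 50072 to 50815 in testis, and ACR, TSSK6, SPACA9 and PLCZ1 were at background in both ovary pools. The part of these cells in the differences of the kinesin genes was not tested.

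KIF6, the other kinesin-9, gave opposite readings by probe set. Its brightest probe set read log2 11.85 and 12.01 in ovary and 9.16 and 9.11 in testis and was higher in ovary by 2.80 (SE 0.0719, adjusted p = 0.00153). The next read 3.90 and 4.56 in ovary and 9.80 and 10.02 in testis, a difference of -5.68 (SE 0.295, adjusted p = 0.0041). The third read 4.14 and 3.74 in ovary and 7.81 and 8.15 in testis (-4.04, adjusted p = 0.00458). The fourth lay at background in ovary, at 2.84 and 2.77, and read 6.41 and 6.56 in testis, higher by at least 8.96-fold (adjusted p = 0.00114). Thus 3 of the 4 probe sets placed KIF6 with KIF9, and the brightest, which stands for the gene in the counts above, did not. The second probe set lost its call with either testis pool left out (adjusted p = 0.0646 for pool 1, 0.0675 for pool 2), and so did the third (0.0548 for pool 1, 0.0600 for pool 2), while the other 2 calls held with each pool left out. KIF6 is the only kinesin gene with probe sets called in both directions, of 17 with at least 2 called, where 11.3% of all such genes had both. Which transcript or strand each KIF6 probe set reads was not tested.

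Other members of this class were dim or close between the organs. KIF26A, an unconventional kinesin that acts in the growth of enteric neurons in the mouse, had 1 of 3 probe sets above background. That probe set read log2 6.25 and 6.50 in ovary and 3.48 and 4.19 in testis. It was higher in ovary by 2.54 (adjusted p = 0.0206). One of its testis values lay below the brightest probe set for other sequences on that array, and its call ended with any pool left out (adjusted p = 0.0529 to 0.0822). KIF25, a kinesin-14 that limits centrosome separation in human cells, differed by -0.61 and did not pass (adjusted p = 0.202), and passed without ovary pool 2 (adjusted p = 0.0223). KIF12, a kinesin of kidney and bile duct epithelia, was at background in every pool, although its difference passed with testis pool 2 left out (adjusted p = 0.039). The 3 kinesin genes on the Z chromosome, which males carry as a pair and females in a single copy, were KIF2A, KIF24 and KIF27. By their brightest probe sets they did not share a direction, since KIF2A was higher in ovary and KIF24 and KIF27 were higher in testis. The dimmer KIF2A probe set did not pass (0.08, adjusted p = 0.757). Shares over all genes of the Z chromosome were not worked out.

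Probe sets of one gene mostly told the same story, as the plot of probe set differences shows. Of the 100 probe sets, 78 lay above background in some pool, and 12 were called higher in ovary and 46 in testis, against 18.2% and 17.4% of all probe sets. Among the 24 genes with at least 2 probe sets above background, 5 had differences of both signs, namely KIF6, KIF5C, KIF20A, KIF13A and KIF7. The differences within such a gene as deposited spanned a median of 1.27 on the log2 scale, and 8.47 for KIF6. The matching share of genes with both signs was not worked out over all genes. Whether probe sets of a gene read overlapping sequence was not tested.

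**Figure D4:**
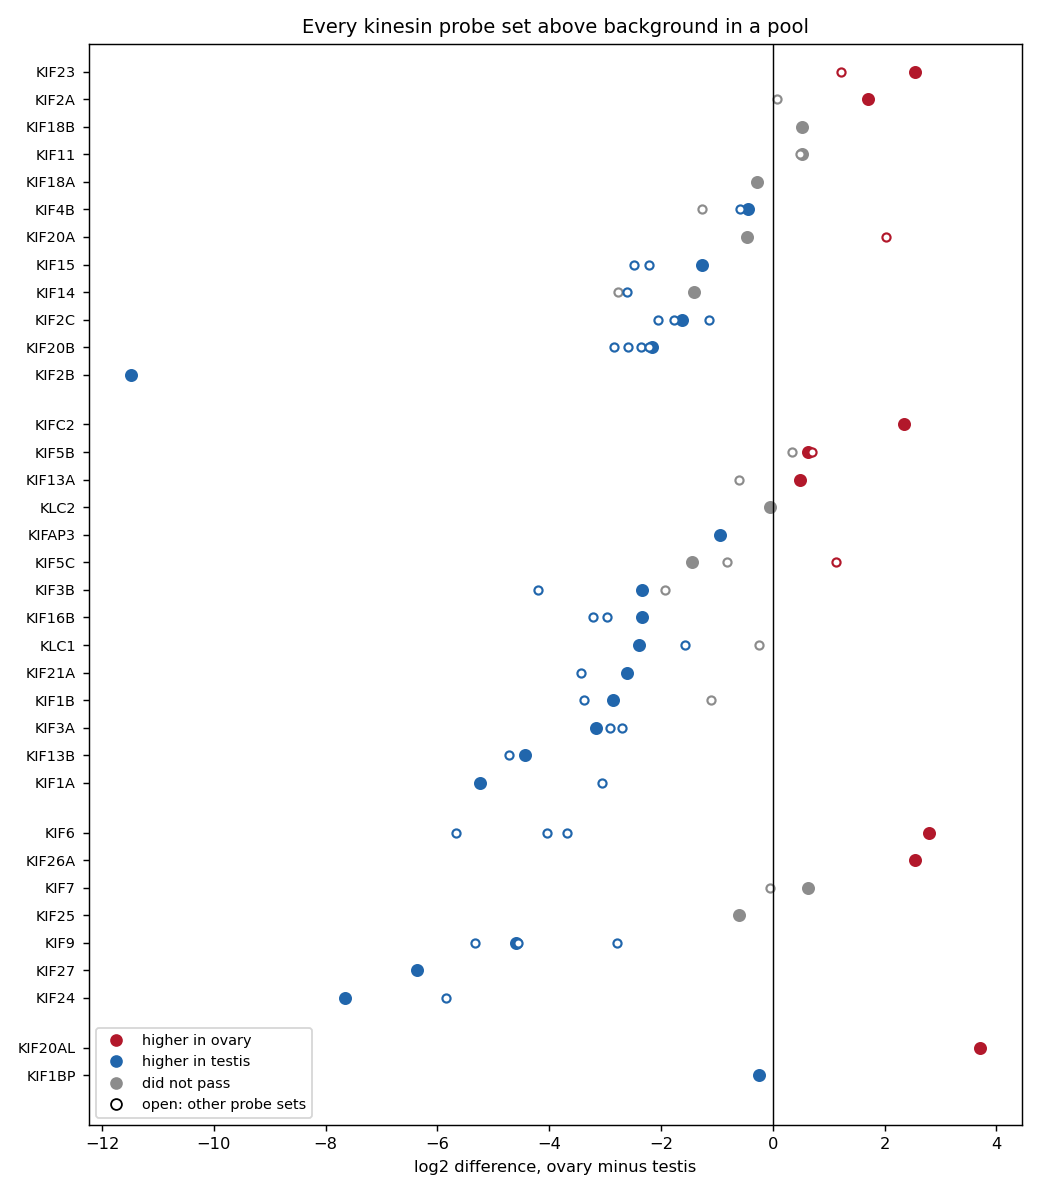
Log2 difference of ovary minus testis (horizontal axis) for the 78 kinesin probe sets above background in some pool, by gene (rows, in the order of the plot of values by pool). Filled points are the brightest probe set of a gene and open points its others; red points are called higher in ovary, blue higher in testis and grey did not pass. The points of KIF6 lie on both sides of 0, at 2.80 and, for the probe sets above background in both organs, at -5.68 and -4.04. Where an organ lies at background the point shows the deposited difference, which is not measured on both sides.

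Leaving out a pool removed many calls without turning their direction. Of the 26 called genes, 11 stayed called in the same direction with each pool left out in turn. These were KIF23, KIF6 and KIF20AL toward ovary, and KIF20B, KIF2B, KIF2C, KIF3A, KIF3B, KIF1A, KIF27 and KIF9 toward testis. The most calls were lost without a testis pool, among the kinesin genes and among all probe sets alike. The matching share of all called genes or probe sets was not worked out. Whether the genes named here are firmer than most is therefore not known. With a testis pool left out, the spread of a gene itself comes from the 2 ovary pools alone. That spread was small where ovary lay at background, as for KIF1A (SD 0.0112) and the dimmest KIF9 probe set (SD 0.00113). A call kept there does not speak to the spread between testis pools. Of the kinesin probe sets, 4 of the 12 called toward ovary and 21 of the 46 called toward testis passed with each pool left out.

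**Figure D5:**
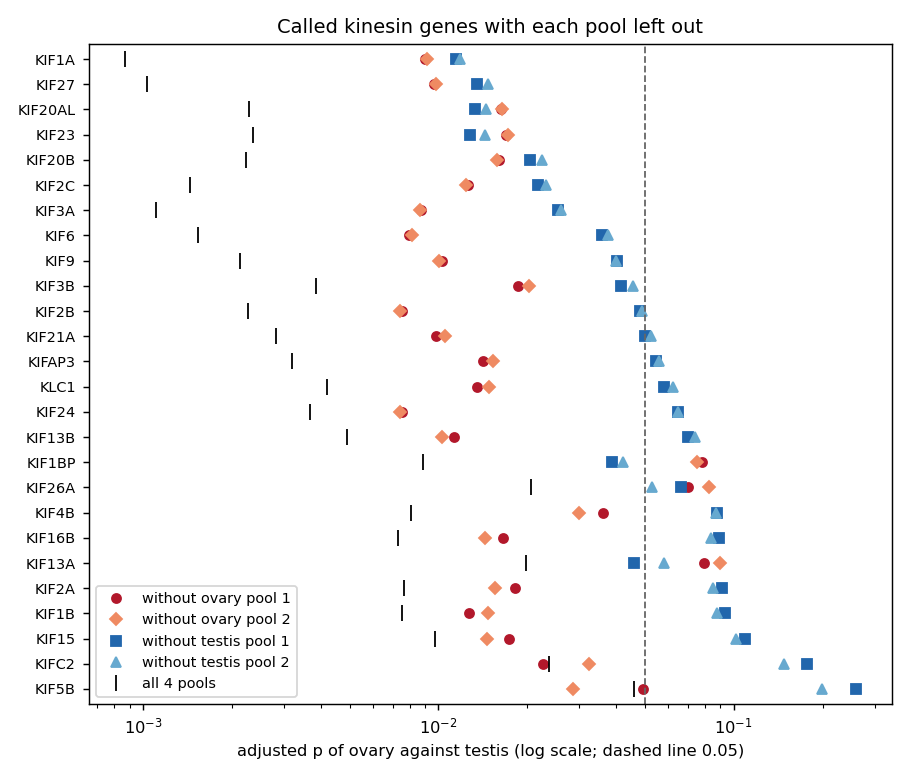
Adjusted p (horizontal axis, log scale) of the 26 called kinesin genes (rows) with each pool left out in turn (red and orange for ovary pools, dark and light blue for testis pools) and with all 4 pools (black bars), with a dashed line at 0.05. The points of 11 genes, KIF1A to KIF2B, lie left of the line throughout, and those to its right come mostly from fits without a testis pool.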

How the data were processed

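RNA of whole ovaries and testes was measured on 4 arrays, 1 per pool. The deposited table holds the authors' log2 expression values per probe set. Per the submitters' processing notes, GCRMA and MAS5 were among the tools, with the step of each unstated; the authors checked the arrays with affyPLM, per the labels. Of 38535 probe sets, 153 controls were left out. Symbols came from the platform annotation, with chromosomes from a gene table of assembly GRCg7b matched by gene number. Ovary was compared with testis by limma 3.58.1 in R 4.3.3 (lmFit, eBayes, two-sided), tested on simulated data, with 2 residual and 0.741 prior degrees of freedom. With 2 pools per organ, the smallest p of an exact permutation test is 0.333. The number of arrays limits the precision, and p-values measure only the spread between pools. Where both pools of an organ lay at or below background, the fold is a lower bound ("at least N-fold"), taken from the other organ's mean over the background level. The probe sets behind that level were recognised by their names. Sums over marker lists are of 2 to the power of the deposited values.

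Every gene of the set is named. Values per pool are given for called genes with a difference of at least 1 on the log2 scale, and for partner lists the 3 largest called members per direction are named. Members and lists were chosen with earlier results of these data known. Alternatives were the pool number as a block, a filter and a floor at background, quantile normalization, median centring, a variance trend, robust moderation, the mean of a gene's probe sets, classes by family number and leaving out each pool. No promoter or protein sequences were used here.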

Additional observations from a re-analysis of the deposited data

How the results depend on the processing

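The counts of kinesin genes toward ovary (8) and testis (18) stayed within 7 to 10 and 18 to 20 under every alternative that kept all 4 pools. With each pool left out they ran from 3 to 9 toward ovary and 9 to 18 toward testis, mitotic genes from 1 to 3 and 3 to 5, transport genes from 0 to 3 and 3 to 10, and all probe sets from 3734 to 6449 and 4053 to 6007. Each of these fits has 1 array fewer, and the largest losses came without a testis pool, where a gene's own spread comes from the ovary pools alone. Differences of genes that lost calls kept their sign. With each pool left out, KIF24 ran from -8.08 to -7.22, KIF13B from -4.71 to -4.15 and KIFC2 from 2.01 to 2.70. Pools share a number only: same-numbered pools deviated together at r = 0.054 over 23785 probe sets, and with the pool number as a replicate block the counts were 7 toward ovary and 20 toward testis, with 1 transport gene toward ovary. The mean of all probe sets of a gene also left 1 transport gene toward ovary, and it turned KIF6 to -2.65 (adjusted p = 0.00158) and KIF13A to -0.058 (adjusted p = 0.922), since dimmer probe sets then count as much as the brightest. With each pool left out KLC2 ran from -0.53 to 0.42. Classes by family number alone gave 8 of 17 mitotic and 8 of 13 transport genes toward testis, since genes enter and leave the classes. The call of KIF5B ended under robust moderation, quantile normalization, the mean of probe sets and the block (adjusted p = 0.0540, 0.0648, 0.0794 and 0.118), and that of KIF1BP under the block, the floor, the filter, the mean of probe sets and median centring (0.0536, 0.0699, 0.0905, 0.0935 and 0.223). The block also ended that of KIF13A (0.0725) and gave calls to KIF5C (0.0260), KIF20A (0.0301), KIF11 (0.0407) and KIF18A (0.0471). KIF14 gained a call toward testis under the filter, the floor, median centring and the mean of probe sets (0.0211 to 0.0414). KIF18B gained one toward ovary under the same alternatives and quantile normalization (0.0120 to 0.0494). KIF7 passed toward ovary under the filter, the floor and the mean of probe sets (0.0404, 0.0430 and 0.00944). KIF18A passed toward testis under quantile normalization and the mean of probe sets (0.0285 and 0.0450). Values near background, as for KIFC2, KIF26A, KIF5C and KIF1A, limit what these arrays can show.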
